A study of Gallus gallus with 9 samples.

Results

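The genes described here drive and time cell division: cyclins and the kinases they activate, the inhibitors that hold those kinases back, the machinery that copies DNA, and the proteins that separate the chromosomes. A list of 38 gene symbols was matched to the platform's gene annotation, and 34 of them had a probe set carrying that 1 symbol, out of 13009 genes measured this way in the whole series. CDK2, CCNB2, MCM4 and AURKA had none and were not analysed here. The 34 genes were covered by 68 probe sets, and for the 20 genes with more than 1 the probe set with the highest mean over the 9 arrays was used.

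A cell enters division when D-type cyclins, with CDK4 or CDK6, and cyclin E, with CDK2, switch off RB1 and release E2F transcription factors. E2F factors then raise the genes for DNA copying and nucleotide supply, and a later wave of genes prepares the spindle. Preadipocytes that become fat cells leave the cycle, and in mouse cell lines a confluent culture given an adipogenic cocktail first divides again for a short time before it does so. The inhibitors CDKN1A, CDKN1B and CDKN2B act against this entry.

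Preadipocytes came from the abdominal fat of 3 laying hens (Lohman strain, 19 wk old) and were grown to confluence in medium with 10% fetal bovine serum. Cells titled DMIOA received an adipogenic cocktail of the glucocorticoid dexamethasone (500 nM), oleic acid (300 μM), insulin (20 μg/mL) and 3-isobutyl-1-methylxanthine (0.5 mM), an inhibitor of cyclic AMP breakdown. Cells titled DMIOA+20S received the same cocktail and 5 μM of the oxysterol 20(S)-hydroxycholesterol, and control cells had the medium alone. RNA was taken after 96 hr and measured on 3 Affymetrix chicken arrays per group. Which hen or dish each array came from is not given in the sources used here. In the main fit the p-values rest on a spread shared by the 3 groups, with 3 arrays in each. An array outside a comparison therefore also affects its p-values, and the small number of arrays limits the precision.

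The deposited values are log2 intensities, 1 per probe set, with array medians from 2.11 to 2.14. A gene near 2 was therefore no brighter than the middle of the array. All differences below are log2 differences, on which 1 is a 2-fold difference.

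The titles and the likeness of the arrays did not match, which bears on every comparison. The arrays were placed in 3 sets fixed beforehand from the likeness of these same arrays. Correlations between arrays were then computed over 38371 probe sets, leaving out those of the cell cycle genes. Set A held control 1, control 2 and DMIOA 1. Set B held DMIOA 2, DMIOA+20S 1 and DMIOA+20S 2, and set C held the 3 arrays titled replicate 3, whose titles are also worded differently. Arrays of 1 set correlated at r = 0.993 to 0.997, against 0.970 to 0.976 between set A and the others and 0.989 to 0.995 between sets B and C. Sets B and C were not cleanly apart: DMIOA+20S 2, placed in set B, correlated at 0.9947 with DMIOA+20S 3 of set C, above its 0.9936 with DMIOA 2 and 0.9931 with DMIOA+20S 1. Arrays of 1 title group correlated at 0.971 to 0.997. FABP4, a fatty acid carrier of fat cells, measured 10.04 to 10.23 on the arrays of set A and 13.39 to 13.73 on the other 6, the control 3 array included at 13.39. Comparisons and tests below follow the titles, while the sets, which were found in the data, are given as a description with no test.

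As a check of the labelled cell type, 11 of 12 preadipocyte and fibroblast markers had a log2 value of 4 or more on every array, COL1A1 between 13.80 and 14.11, while PDGFRA was low (1.05 to 2.15). Of 11 macrophage and leukocyte markers, 4 to 6 reached 4 on the arrays of set A and 1 on each of the others, and the log2 of their summed level was 8.05 to 8.30 on set A and 6.85 to 7.18 elsewhere. PTPRC, the pan-leukocyte CD45 antigen, measured 5.12 to 5.37 on set A and 1.94 to 2.67 elsewhere. CYBB was low throughout, between 1.65 and 2.28, and highest on set A. C1QB did not follow set A, at 5.60 to 6.31 there and 5.65 to 6.15 elsewhere, nor did MARCO, TLR4 and C1QA. The 9 adipocyte markers had a log2 summed level of 10.68 to 10.90 on set A and 13.49 to 13.88 elsewhere, with CEBPA, PLIN1 and ADIPOQ no higher than 3.78 on any array. In such cultures fewer cells of a type and less RNA per cell cannot be told apart.

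Most of the 34 genes passed a brightness cut-off, and many of them differed between arrays by 2-fold or more. A log2 value of 4 on at least 3 arrays was reached by 28 genes and not by CCNE2, MCM3, BUB1, TTK, CENPE and CENPF. The span from the lowest to the highest array had a median of 0.974 over the 34 genes and of 0.638 over all genes, and it was at least 1 in 17 of the 34. The smallest of those 17 spans, 1.01 for MKI67, was wider than that of 75.98% of all genes. Neither the medians nor this share are matched for brightness. Only 12169 of 38439 probe sets reached 4 on at least 3 arrays, and spans of dim genes are shrunken. RRM2, CDKN2B and CDK6 had the widest spans, at 3.09, 3.05 and 2.65. CDKN1B had the narrowest, at 0.19.

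Among the kinases and cyclins, CCND1 (cyclin D1, the growth-factor sensor of early G1) measured 10.40, 10.54 and 9.95 on control 1, 2 and 3. The DMIOA arrays gave 10.43, 9.58 and 10.10 in the same order, and the DMIOA+20S arrays 9.43, 9.67 and 9.91. The 3 DMIOA+20S arrays lay below the 3 control arrays, while the DMIOA arrays spanned both. CCND2, another D cyclin, stayed between 10.35 and 10.67 on all 9 arrays, and CCND3 between 4.94 and 6.14.

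CDK6, the partner kinase of the D cyclins, is named in the study as over-expressed in DMIOA+20S against DMIOA. Here it measured 5.43, 6.07 and 5.95 on control 1, 2 and 3. On DMIOA 1, 2 and 3 it measured 7.24, 5.26 and 5.97, and on DMIOA+20S 1, 2 and 3 it measured 4.59, 6.91 and 7.10. The title groups overlapped, and the highest and the lowest array of the DMIOA+20S group differed more than any pair of group means. The arrays DMIOA 1, DMIOA+20S 2 and DMIOA+20S 3, which belong to 3 different sets, were the high ones. The other 4 CDK6 probe sets stayed at or below 2.44, so the pattern rests on 1 probe set. A further CCND2 probe set, dimmer than the chosen one and picked out after its values were seen, measured 7.78, 7.87 and 7.52 on those same arrays and 5.82 to 6.72 on the other 6.

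CDK1, the kinase of mitotic entry, lay between 7.76 and 8.60 on the 9 arrays and its partner CCNA2 between 6.63 and 7.02. CCNB3 lay between 3.88 and 4.91. CCNE1, cyclin E1 of the G1/S step, lay between 4.63 and 5.14, and CCNE2 between 1.77 and 2.62, near the array median. The widest of these spans was 1.03, that of CCNB3.

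Of the inhibitors, CDKN2B (p15, which blocks CDK4 and CDK6) differed most between arrays. The study names it as over-expressed in control cells against DMIOA. The control arrays 1, 2 and 3 measured 10.50, 10.21 and 9.23, the DMIOA arrays 10.63, 7.59 and 10.48, and the DMIOA+20S arrays 7.59, 7.69 and 9.40. The highest array was 8.26-fold above the lowest. CDKN2A, a separate gene with its own probe set although the reference table also lists its name as a synonym of CDKN2B, measured 9.55 to 10.22 on the 9 arrays. Low values, 7.59 to 7.69, were found on the 3 arrays of set B alone, 1 of them titled DMIOA and 2 titled DMIOA+20S. The SD was 1.71 over the 3 DMIOA arrays, above the difference of 1.34 between the DMIOA and the DMIOA+20S means.

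CDKN1A (p21, a target of p53) lay between 8.75 and 9.37 and CDKN1B (p27) between 9.92 and 10.11. RB1, the brake on E2F, measured 8.19, 8.30 and 7.66 on control 1, 2 and 3, against 7.92, 7.75 and 7.74 on the DMIOA arrays and 7.76, 7.14 and 7.35 on the DMIOA+20S arrays. Its 3 highest values were those of set A. E2F1, an activator of S phase genes, lay between 3.53 and 4.40.

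**Figure D1:**
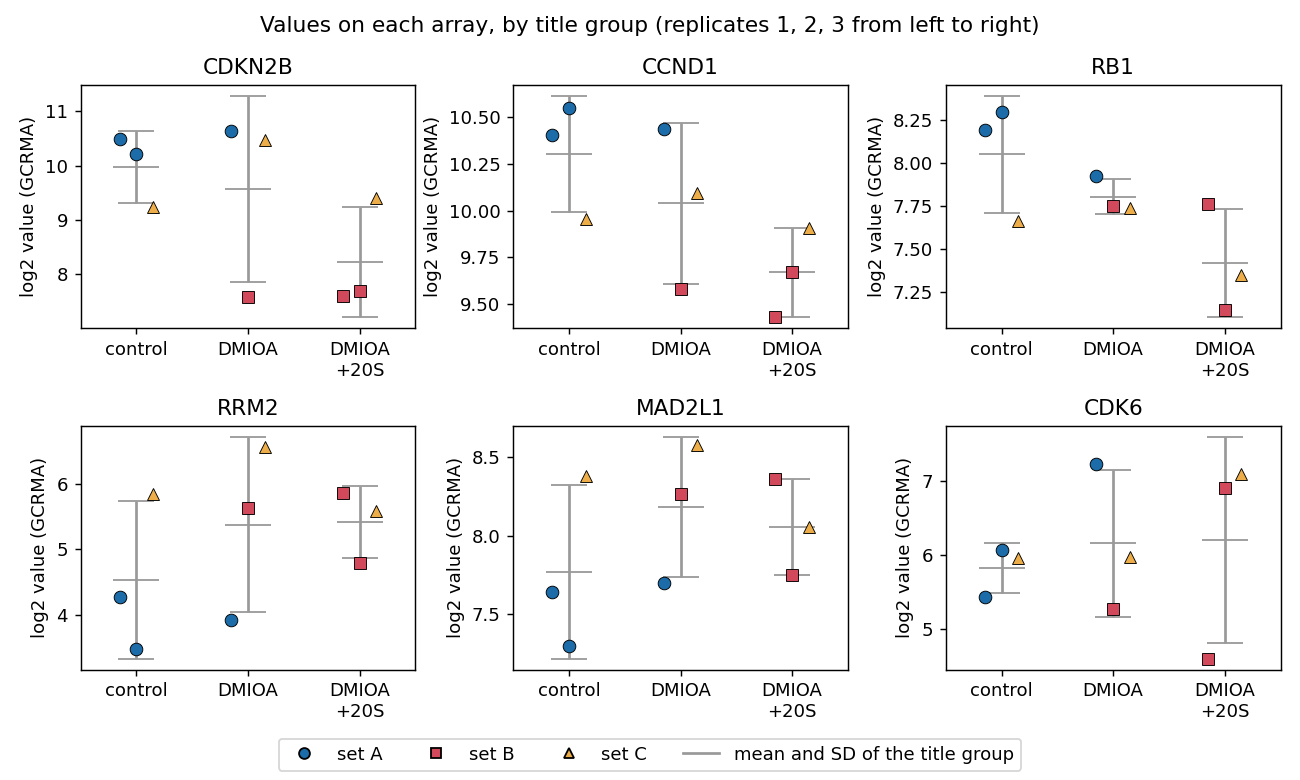
Log2 values of 6 genes on each array (vertical axis, its range set per gene) by title group (horizontal axis), with replicates 1 to 3 from left to right. Symbols mark the sets of like arrays, and grey bars the mean and SD of the 3 arrays of each title group. For CCND1, RB1, RRM2 and MAD2L1 the arrays of set A (blue circles) lie apart from the rest, across 2 title groups. For CDKN2B the arrays of set B (red squares) lie apart, and DMIOA 3 of set C lies among those of set A. CDK6 follows neither titles nor sets.

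Of the DNA replication genes, RRM2, the small subunit of ribonucleotide reductase that makes DNA precursors, differed most. It measured 4.28, 3.48 and 5.85 on control 1, 2 and 3, then 3.93, 5.63 and 6.57 on the DMIOA arrays and 5.85, 4.80 and 5.59 on the DMIOA+20S arrays. The 3 arrays of set A were the lowest, and DMIOA 3 was 8.51-fold above control 2.

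RRM1, the large subunit of the same enzyme, measured 4.58, 5.00 and 5.53 on the control arrays, 5.07, 5.57 and 5.98 on the DMIOA arrays and 5.77, 5.25 and 5.61 on the DMIOA+20S arrays. PCNA, the sliding clamp of DNA polymerase, measured 9.17, 9.11 and 9.76, then 9.42, 9.58 and 9.79, and then 9.63, 9.85 and 9.98 in the same order. Both genes were lowest on the 3 arrays of set A. MCM5, a subunit of the helicase that opens DNA, measured 3.85, 3.72 and 4.10 on control 1, 2 and 3, 3.91, 4.54 and 4.98 on DMIOA 1, 2 and 3, and 4.85, 4.09 and 4.44 on the DMIOA+20S arrays. Its control arrays overlapped both treated groups.

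The helicase subunits MCM2 and MCM6 lay between 3.32 and 4.94 and between 6.75 and 7.44, and MCM3 did not pass 2.37. CDC45, which joins the MCM ring to form the active helicase, lay between 5.93 and 6.64. TYMS, which makes thymidylate, lay between 3.59 and 4.52.

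Of the mitosis genes, MAD2L1, a spindle checkpoint protein, measured 7.64, 7.29 and 8.38 on the control arrays, 7.70, 8.27 and 8.58 on the DMIOA arrays and 8.36, 7.75 and 8.06 on the DMIOA+20S arrays. Set A was lowest for it too. BUB1B, another checkpoint protein, measured 5.71, 4.36 and 4.39 on control 1, 2 and 3, 4.67, 5.22 and 4.79 on the DMIOA arrays and 5.41, 4.13 and 4.36 on the DMIOA+20S arrays. KIF11, the motor that pushes spindle poles apart, measured 5.05, 4.24 and 3.52 on control 1, 2 and 3, against 3.48 to 4.30 on the other 6 arrays. For both genes control 1 was the highest array, and the control arrays alone spanned over 1 on the log2 scale.

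MKI67, the proliferation antigen Ki-67, measured 6.64, 6.001 and 6.598 on the control arrays, 6.61, 6.89 and 7.01 on the DMIOA arrays and 7.01, 6.15 and 6.44 on the DMIOA+20S arrays. TOP2A, which untangles DNA, lay between 4.03 and 5.44, PLK1, a mitotic kinase, between 4.91 and 6.09, and CDC20, the activator of anaphase, between 5.32 and 6.14. All 3 were highest on DMIOA+20S 1. TTK (the checkpoint kinase MPS1) lay between 2.90 and 4.005, BUB1 between 3.47 and 4.06, and the centromere proteins CENPE and CENPF between 3.51 and 4.03.

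Between the arrays titled DMIOA and control, none of the 34 genes passed the test. Limma called 0 of the 34 and 0% of 38439 probe sets at an adjusted p below 0.05 with at least a 2-fold difference. Over all probe sets 905 had an unadjusted p below 0.05 and the smallest adjusted p was 0.994, while 0 of the 34 genes did. The t-test of the study's methods called 0 of the 34, with 1 of them at an unadjusted p below 0.05. The 34 differences ran from -0.41 for CDKN2B (SE 0.85) to 0.84 for RRM2 (SE 0.76), with a median of 0.14, beside -0.0071 over all genes. Of the 34, 27 were above 0, beside 6270 of all 13009 genes. All 9 replication genes and 9 of 11 mitosis genes had a difference above 0, with medians of 0.25 and 0.34, and the median was 0.047 for the kinases and cyclins and 0.049 for the inhibitors with RB1 and E2F1. Without DMIOA 3, the highest array for many of these genes, the replication and mitosis medians were 0.15 and 0.21 and that of the 34 was 0.084, and MCM2 measured -0.32. Without control 2 the mitosis median was 0.17, with 7 of 11 above 0. The median of the kinases and cyclins was -0.035 without DMIOA 2, and that of the inhibitors with RB1 and E2F1 was -0.074 without DMIOA 3. With replicates 1 and 2 only, 21 of the 34 differences were above 0, among them 6 of the 9 replication and 7 of the 11 mitosis genes. Of the replication genes MCM5 measured 0.59 (SE 0.29) and RRM1 0.50 (SE 0.30). Of the mitosis genes MKI67 measured 0.43 (SE 0.25), TTK 0.42 (SE 0.19) and MAD2L1 0.41 (SE 0.32).

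In 2 genes, CDC45 and CDC20, the 3 DMIOA arrays all lay above the 3 control arrays, which held for 1.96% of all genes. In 0 of 34 did they all lie below, against 2.3% of all genes. Both shares rest on few genes. Without the DMIOA 1 array the RRM2 difference was 1.56, and without control 3 it was 1.495, while without DMIOA 3 it was 0.24. Within the replicate 3 arrays the RRM2 value was 0.72 higher on DMIOA than on control, and CDKN2B was 1.24 higher, although CDKN2B was 1.24 lower on DMIOA over replicates 1 and 2 alone.

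The comparison by title for added 20(S)-hydroxycholesterol gave no called difference in these genes either. Between the arrays titled DMIOA+20S and DMIOA, limma called 0 of the 34 genes and 0% of the probe sets, with 1099 probe sets and 0 of the 34 at an unadjusted p below 0.05. The smallest adjusted p over all probe sets was 0.977, and the methods' t-test called 0 of the 34, with 0 at an unadjusted p below 0.05. The differences ran from -1.34 for CDKN2B (SE 0.85) to 0.25 for TTK (SE 0.19). Of the 34, 15 were above 0, beside 6202 of all 13009 genes. They had a median of -0.045, beside -0.0099 over all genes. That median was 0.022 without DMIOA+20S 2, 0.0096 without DMIOA 3, -0.21 without DMIOA+20S 1, -0.19 without DMIOA 1 and -0.090 without DMIOA 2, so its sign rests on single arrays. RB1 measured -0.39 (SE 0.20), CCND1 -0.37 (SE 0.24) and CCND3 -0.36 (SE 0.25). CDK6 measured 0.045 (SE 0.71). That interval spans both directions, and CDK6 was 1.13 higher on DMIOA+20S within the replicate 3 arrays and 0.50 lower over replicates 1 and 2.

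The 3 DMIOA+20S arrays all lay above the 3 DMIOA arrays in 0 of the 34 genes, against 3.11% of all genes. They all lay below in 1, E2F1, against 3.47%. These counts are near those of the array as a whole. Mitosis genes had a median of -0.15, with 8 of 11 below 0. Without DMIOA+20S 1 that median was -0.34, without DMIOA+20S 2 it was -0.0037, and without DMIOA+20S 3 or DMIOA 2 it was -0.068 or -0.098. With replicates 1 and 2 only its sign turned, to 0.0125, with 6 of 11 above 0.

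**Figure D2:**
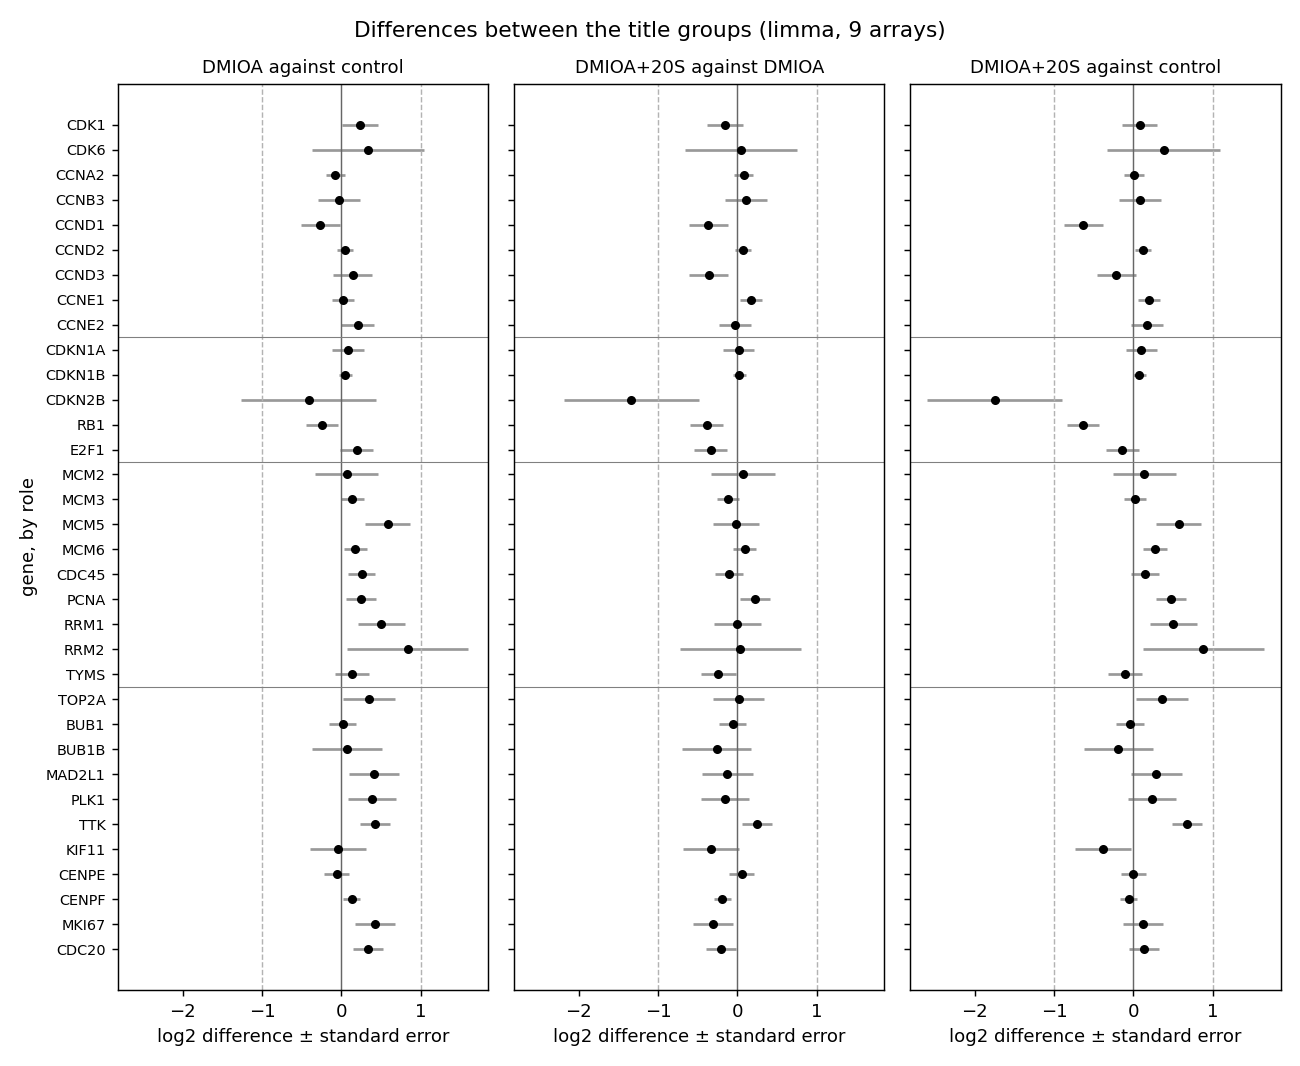
Log2 differences between title groups (horizontal axis, points) with the standard error of the limma fit (bars) for the 34 genes (vertical axis, by role) in 3 comparisons, with dashed lines at a 2-fold difference. The widest errors belong to CDKN2B, RRM2 and CDK6, and none of the 102 differences was called.

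Between the arrays titled DMIOA+20S and control, which share their arrays with the comparisons above, limma called 0 of the 34 genes and 0.0052% of the probe sets, which is 2 of 38439. At an unadjusted p below 0.05 there were 3880 probe sets, 1663 of all 13009 genes and 4 of the 34 genes. These were TTK with a log2 difference of 0.67 (SE 0.19), RB1 with -0.63 (SE 0.20), CCND1 with -0.63 (SE 0.24) and PCNA with 0.47 (SE 0.19), all at an adjusted p of 0.492 by limma. With array weights in limma, which fall as an array departs from its title group, the adjusted p values of these 4 were between 0.0528 and 0.0648. The lowest weights went to DMIOA 1 (0.375) and control 3 (0.431), whose titles and likeness did not match. TTK is dim and did not reach a log2 value of 4 on 3 arrays. With probe sets that dim left out, 2 of the 28 genes kept had an unadjusted p below 0.05 by limma, beside 1678 of 12169 probe sets. The methods' t-test called 0 of the 34, with 3 at an unadjusted p below 0.05. The differences ran from -1.75 for CDKN2B (SE 0.85) to 0.88 for RRM2 (SE 0.76), with a median of 0.11, beside -0.0072 over all genes. Of the 34, 23 were above 0, beside 6341 of all 13009 genes. Without DMIOA+20S 1 the median was -0.065, with 14 above 0, and without control 2 it was 0.040.

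CCNE1, CDKN1B and TTK lay above the 3 control arrays on all 3 DMIOA+20S arrays, which is 8.8% of the 34 beside 6.66% of all genes. CCND1 alone lay below, 2.9% beside 8.96% of all genes. A single gene is 2.9% of the list, so neither share is far from that of the array as a whole in number of genes. Within the replicate 3 arrays TTK was 1.0025 higher on DMIOA+20S than on control, and CCND1 was 0.045 lower.

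**Figure D3:**
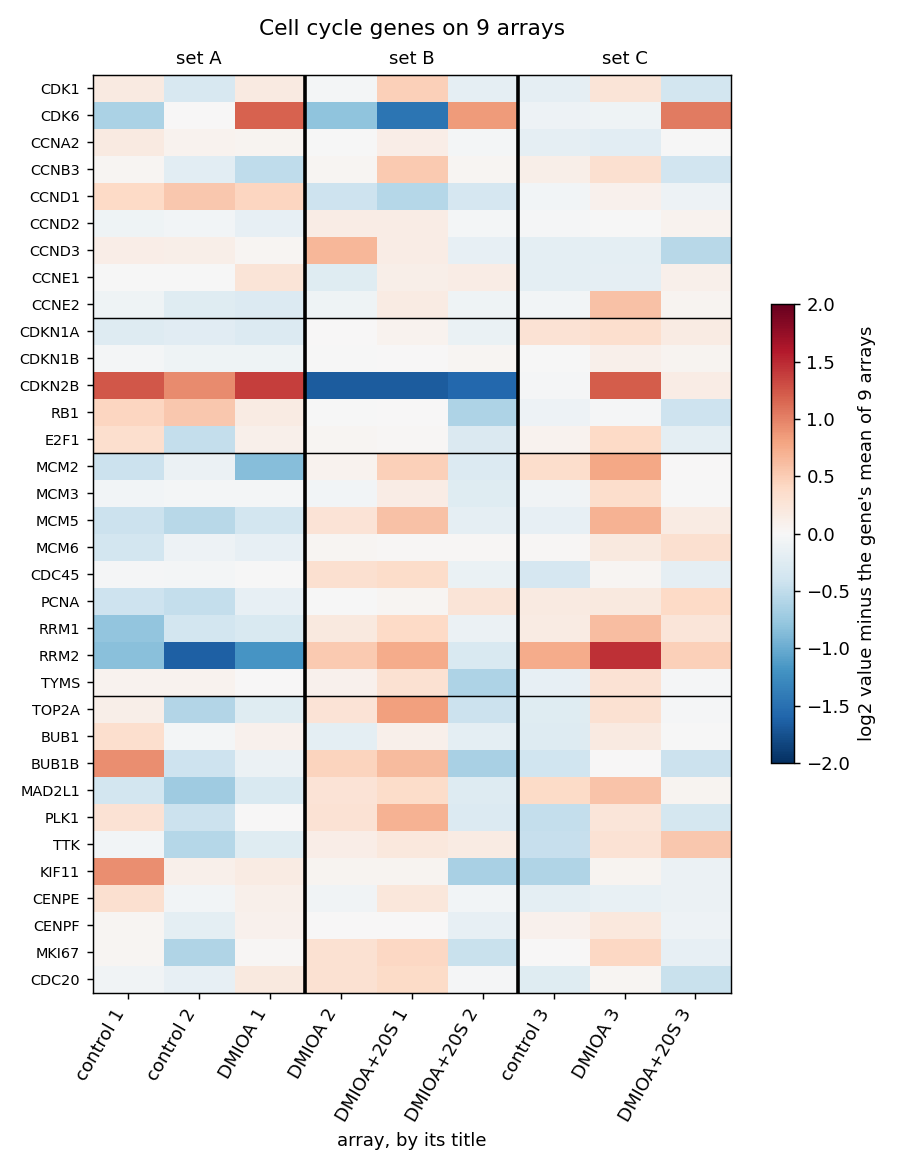
Log2 value minus the mean of the 9 arrays for each of the 34 genes (vertical axis, by role, with lines between roles) on each array (horizontal axis, by title, ordered by set). The mitosis genes (lowest block) differ between arrays of the same set, and RRM2 and CDKN2B have the deepest colours.

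By set rather than by title, 5 of the 9 replication genes were lowest on control 1, control 2 and DMIOA 1, and MCM2, MCM3, CDC45 and TYMS were not. On the arrays of set A, 10 of the 34 genes lay below all 6 other arrays (29.4% beside 15.9% of all genes). These were the replication genes MCM5, MCM6, PCNA, RRM1 and RRM2, the cyclins CCND2 and CCNE2, the inhibitors CDKN1A and CDKN1B, and MAD2L1. Averaging a gene's probe sets instead of taking the brightest, 4 of the 34 did, and the share of all genes was not computed that way. The gap was narrow in some, such as CDKN1B, whose highest value on set A was 9.97 and lowest elsewhere 10.00. For CCND2 these were 10.465 and 10.484. For CCNE2, dim on every array, they were 1.955 and 1.957, so its place in the count rests on almost no difference. CCND1, RB1 and KIF11 lay above all 6 other arrays (8.8% beside 17.4% of all genes), KIF11 by its lowest value of 4.24 on set A against a highest of 4.19 elsewhere. The summed macrophage and adipocyte marker levels given above moved with set A as well, although the macrophage markers C1QB, MARCO, TLR4 and C1QA did not. The adipocyte sum did so mainly through FABP4, and CD36 and CIDEC moved the same way. PPARG ran against that direction, highest on DMIOA 1 (9.297) and lowest on DMIOA 3 (7.95), and LPL, CEBPA and CIDEA did not follow set A. The 7 endothelial markers had a log2 summed level of 9.53 to 9.68 on set A and 8.50 to 8.86 elsewhere, through ERG and CDH5. The 5 skeletal muscle markers had a log2 summed level of 11.43 to 11.64 on set A and 7.70 to 8.72 elsewhere, through ACTA1, and the 6 T cell markers, through CD247, 4.98 to 5.27 on set A and 6.19 to 6.78 elsewhere. Other markers of these lists were low and did not all go the same way. TEK was lower on set A (1.46 to 1.58) than elsewhere (1.59 to 1.91), while VWF was higher (2.02 to 2.22 against 1.64 to 1.86). CD3D was higher on set A, against CD247, at 1.98 to 2.24 and 1.61 to 1.92 elsewhere. MYOD1, MYOG, TNNC2 and DES did not pass 2.17 on any array, and the T cell markers other than CD247 did not pass 2.39. The part of all these markers in the result was not tested.

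On set B 0 of the 34 lay above the other 6 arrays, beside 4.46% of all genes, and CCND1 and CDKN2B lay below (5.9% beside 5.39%). On set C, CDKN1A lay above the rest (2.9% beside 5.07%) and CCND3 and CENPE below (5.9% beside 4.1%). Those shares are close to or under the background. By title, set C holds 1 array of each group.

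The mitosis genes differed between arrays of the same set. Their median, relative to each gene's mean of the 9 arrays, was 0.12, -0.42 and 0.016 on control 1, control 2 and DMIOA 1. On DMIOA 2, DMIOA+20S 1 and DMIOA+20S 2 it was 0.27, 0.36 and -0.26, and it was -0.25, 0.22 and -0.11 on control 3, DMIOA 3 and DMIOA+20S 3. The replication genes had medians of -0.42, -0.12 and -0.17 on set A, 0.085, 0.37 and -0.18 on set B, and 0.024, 0.36 and 0.16 on set C. DMIOA 3 was the highest array for 12 of the 34 genes and DMIOA+20S 1 for 7, while control 2 was the lowest for 10. The matching shares of all genes were not computed, so these counts may hold for the arrays as a whole.

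**Figure D4:**
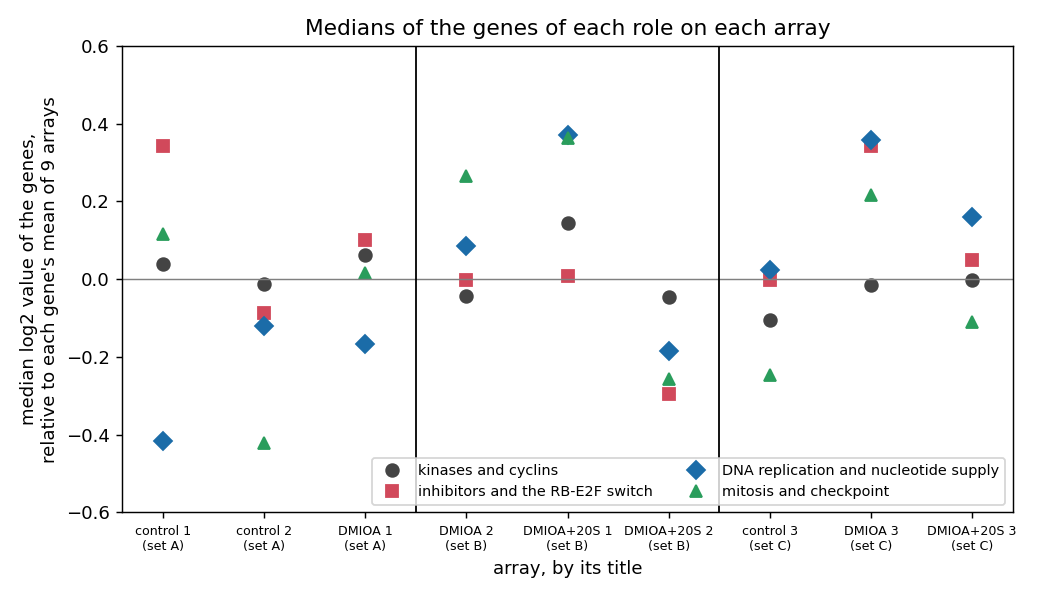
Median log2 value of the genes of each role, relative to each gene's mean of the 9 arrays (vertical axis), on each array (horizontal axis, by title and set). Replication genes (diamonds) are below 0 on all 3 arrays of set A and on DMIOA+20S 2, and mitosis genes (triangles) differ between arrays of the same set.

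The mean of the 34 genes on an array, each relative to its own mean, ran from -0.20 on DMIOA+20S 2 to 0.28 on DMIOA 3. The genes that followed that mean most closely over the 9 arrays were FAM83D (r = 0.970), MOSPD1 (r = 0.955) and FAM175B (r = 0.920), of which FAM83D is a spindle protein. FAM83D and MOSPD1 were dim, with mean levels of 3.08 and 3.89, and FAM175B had 7.25. These 3 are the top of a search over all genes on 9 arrays and describe these arrays only.

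Genes of the same processes outside the list were not called, in comparisons where limma called almost no probe set. Of 29 other G1 and G1/S regulators, 44 other replication genes, 58 other mitosis genes and 20 growth arrest genes with a probe set, limma called 0 in each comparison. Of all probe sets it called 0%, 0% and 0.0052%, so the lack of calls says little about these lists. The other mitosis genes had median differences of 0.11 for DMIOA against control, -0.11 for DMIOA+20S against DMIOA and 0.024 for DMIOA+20S against control. At an unadjusted p below 0.05 in limma there were 4, 3 and 6 of those 58, beside 260, 345 and 1663 of all 13009 genes. On the arrays of set A, 10 of the 44 other replication genes lay below all other arrays and 7 above (22.7% and 15.9%, beside 15.9% and 17.4% of all genes). Of the 58 other mitosis genes 5 lay below and 6 above, of the 29 G1 regulators 5 below and 7 above, and of the 20 growth arrest genes 5 below and 7 above. Each list had genes on both sides, and the next genes are named for having the largest or smallest differences of their lists. TK1, thymidine kinase of the S phase, measured 4.34, 3.85 and 6.204 on control 1, 2 and 3, and 4.002, 5.36 and 6.66 on the DMIOA arrays, lowest on set A like RRM2. MCM9, of the same list, ran the other way, at 5.81 to 6.48 on set A and 4.85 to 5.32 elsewhere. MYCN, a transcription factor that promotes growth, measured 10.58, 10.54 and 10.54 on control 1, control 2 and DMIOA 1, and 8.12 to 8.48 on the other 6 arrays. SESN3, a stress-induced inhibitor of mTORC1 signalling, measured 4.65 to 4.97 on set A and 8.64 to 9.34 elsewhere.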

How the data were processed

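RNA of hen preadipocytes was hybridized to 9 Affymetrix chicken arrays. The authors used FlexArray (its version was not given here) to run GCRMA, so the deposited log2 values are background-corrected, normalized over all arrays and summarized per probe set. GCRMA compresses dim values near a floor, and differences between dim genes are shrunken. Groups came from the titles alone. The members, the other gene lists and the sets of arrays were chosen with earlier results of these data known. The 34 members were all to be named, with values on every array for those differing most within a role, and at most 3 genes from each other list.

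Of the probe sets, 96 controls were left out and 38439 entered limma 3.58.1 (R 4.3.3, lmFit and eBayes) with the 9 arrays in 3 groups and Benjamini-Hochberg adjustment within each comparison. A call needed an adjusted p below 0.05 and a log2 difference of at least 1. The platform table gave 1 symbol to 27168 probe sets, several to 177 and none to 11094. Genes with several symbols were not named. The fit was also run on simulated data with known changes, drawn for each array independently and without sets of like arrays. That run therefore does not show how the fit behaves when titles and likeness disagree, as they did here. Alternatives were a block on replicate number or on title wording, replicates 1 and 2 only, the 2 compared groups only, the methods' t-test, quantile normalization, centring on the array median, a filter on dim probe sets (a log2 value of 4 on 3 arrays), trended and robust eBayes, array weights, no minimum fold, a gene-level fit, a mean per gene, and leaving out each array. Summaries and plots used Python 3.11.15, pandas 2.3.3, numpy 2.4.6, scipy 1.17.1 and matplotlib 3.10.9. Promoter and protein sequences were not analysed here.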

Additional observations from a re-analysis of the deposited data

How the results depend on the processing

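In none of 2328 values under the alternatives was a difference of the 34 genes called, and the lowest adjusted p was 0.0528, for RB1 in DMIOA+20S against control with array weights in limma. The replicate numbers were not taken as pairs in the main fit. Arrays of the same number correlated in their deviations from the group means at 0.702, -0.557 and 0.704 for DMIOA and control. These were -0.297, 0.001 and 0.196 for DMIOA+20S and DMIOA, and 0.045, 0.136 and 0.084 for DMIOA+20S and control. DMIOA and control arrays shared a set for numbers 1 and 3 and not for 2. The values therefore cannot show whether a number stands for a shared hen or batch. With replicate number as a block limma called 0, 0 and 0 probe sets in the 3 comparisons. The 2 probe sets called in DMIOA+20S against control numbered 0 with the replicate block, the title-wording block, replicates 1 and 2 only, only the 2 groups compared, the adjusted t-test, the dim filter, trended and robust eBayes, the mean over probe sets and genes in place of probe sets, 0 to 0 when each array was left out, and 1 after quantile normalization. The methods' t-test without adjustment gave 221, of which 81 were higher and 140 lower, against 1 in DMIOA against control and 5 in DMIOA+20S against DMIOA. At an unadjusted p below 0.05, leaving out single arrays gave 656 to 3388, 686 to 1894 and 1826 to 7302 probe sets in the 3 comparisons. In DMIOA against control there were 3388 without DMIOA 1 and 3164 without control 3, in DMIOA+20S against DMIOA 1894 without DMIOA+20S 1 and 686 without DMIOA+20S 2, and in DMIOA+20S against control 7302 without control 3, 1826 without control 1, 1942 without control 2 and 1857 without DMIOA+20S 2. Of the 34 genes, 0 to 4, 0 to 5 and 1 to 6 were among them. With array weights the medians of the 34 differences were 0.19, -0.22 and 0.051. The 10 genes lower on set A were 4 with the mean over probe sets. The 2 lower on set C were 1 with the dim filter and 0 with that mean. Shares of all genes were not computed under these settings. Among members not past 4 on 3 arrays, GCRMA's floor limits what can be seen.

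The sign of a difference turned in 133 of those values, 41 of them not from leaving out an array. Only 42 of the 102 differences were larger than 1 standard error, and 5 of the 133 turns were among these: CCNE2 in DMIOA against control under 2 settings, KIF11, TYMS and CDC20. The values that turned follow, on the log2 scale. With replicates 1 and 2 only they were in DMIOA against control TYMS -0.026, MCM2 -0.11, BUB1 -0.20, BUB1B -0.089, MCM3 -0.0024 and CCNE2 -0.0088, and in DMIOA+20S against DMIOA CDK6 -0.50, MAD2L1 0.072, BUB1 0.013, CDK1 0.072, MCM3 0.0060, CCNE2 0.21, MCM5 0.25 and PLK1 0.061, and in DMIOA+20S against control CCNA2 -0.082. After quantile normalization they were in DMIOA+20S against DMIOA MCM5 0.034, and in DMIOA+20S against control CENPE 0.032. With each array centred on its median they were in DMIOA+20S against DMIOA TOP2A -0.0006 and RRM1 -0.014, and in DMIOA+20S against control CCNA2 -0.015. With array weights they were in DMIOA against control CCNE1 -0.11, CCNB3 0.15 and BUB1 -0.085, and in DMIOA+20S against DMIOA CDKN1A -0.097, MCM2 -0.28, RRM2 -0.53, TOP2A -0.26, RRM1 -0.21 and CCNB3 -0.096, and in DMIOA+20S against control CCNA2 -0.082, CDK1 -0.032 and MCM3 -0.031. Averaging the probe sets of each gene they were in DMIOA against control BUB1B -0.025 and CENPE 0.061, and in DMIOA+20S against DMIOA CDK6 -0.059, CDKN1B -0.016, MCM6 -0.029 and CENPE -0.054, and in DMIOA+20S against control CCNA2 -0.026, CCNE2 -0.025 and CENPE 0.0071.

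Leaving out each array in turn, the differences of DMIOA against control that turned sign ran from -0.074 to 0.26 for CDKN1A, -0.32 to 0.49 for MCM2, -0.18 to 0.0067 for CCNA2, -0.42 to 0.35 for KIF11, -0.17 to 0.092 for CENPE, -0.029 to 0.38 for E2F1, -0.12 to 0.18 for BUB1, -0.16 to 0.52 for BUB1B, -0.14 to 0.12 for CCNE1, -0.22 to 0.20 for CCNB3, -0.20 to 0.79 for CDK6, -0.099 to 0.33 for CCND3, -0.035 to 0.12 for CCND2, -0.95 to 0.58 for CDKN2B, -0.0001 to 0.093 for CDKN1B and -0.048 to 0.38 for CCNE2. Leaving out each array in turn, the differences of DMIOA+20S against DMIOA that turned sign ran from -0.13 to 0.18 for CDKN1A, -0.35 to 0.46 for MCM2, -0.68 to 0.64 for RRM2, -0.019 to 0.073 for CDKN1B, -0.34 to 0.29 for TOP2A, -0.0064 to 0.15 for CCND2, -0.0067 to 0.18 for MCM6, -0.24 to 0.22 for RRM1, -0.12 to 0.33 for CCNB3, -0.41 to 0.85 for CDK6, -0.30 to 0.23 for MCM5, -0.37 to 0.072 for MAD2L1, -0.0003 to 0.14 for CCNA2, -0.17 to 0.024 for BUB1, -0.21 to 0.019 for MCM3, -0.20 to 0.22 for CCNE2, -0.047 to 0.13 for CENPE, -0.45 to 0.014 for TYMS, -0.41 to 0.0095 for CDK1, -0.49 to 0.034 for PLK1 and -0.41 to 0.0006 for CDC20. Leaving out each array in turn, the differences of DMIOA+20S against control that turned sign ran from -0.064 to 0.35 for MCM2, -0.37 to 0.040 for E2F1, -0.18 to 0.12 for BUB1, -0.58 to 0.26 for BUB1B, -0.75 to 0.012 for KIF11, -0.11 to 0.15 for CENPE, -0.12 to 0.31 for MKI67, -0.15 to 0.30 for CCNB3, -0.17 to 0.25 for CDK1, -0.098 to 0.086 for CCNA2, -0.028 to 0.25 for CDC45, -0.066 to 0.13 for MCM3, -0.10 to 0.48 for PLK1, -0.071 to 0.34 for CDC20, -0.32 to 0.15 for TYMS and -0.067 to 1.19 for CDK6.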
